A study of Mus musculus with 12 samples.

Results

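Immediate early transcription factors are genes whose RNA is made within minutes of a growth signal, without new protein synthesis. The 10 genes described here were Egr1, Egr2, Egr3, Fos, Fosb, Fosl1, Jun, Junb, Nr4a1 and Nr4a3, out of 18193 genes that had a probe set of their own on the array. They were taken as every probe set that the annotation of the array paired with one of these genes alone, which gave 16 probe sets: 3 for Nr4a3, 2 each for Egr2, Egr3, Fosl1 and Jun, and 1 each for the other 5 genes. None of the 16 was shared with another gene. RNA came from B16-OVA, a mouse melanoma cell line that carries the model antigen ovalbumin, and was hybridised to Affymetrix whole-genome mouse expression arrays. There were 4 groups of 3 arrays: cells given the MEK inhibitor (MEKi) GDC-0623 at 100 nM, or the solvent DMSO, and collected 24 h or 72 h after addition. Drug or solvent was added to growing cultures on the day after seeding, with no added growth stimulus named in the labels, so the values are levels in culture, not a response to a stimulus. All groups were of the same single cell line. The submitters call the replicates biological and do not say whether they were separate cultures, so a p-value measures only how these samples vary, and part of that may be technical.

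MEK activates the kinase ERK, which phosphorylates ETS-type ternary complex factors bound beside SRF at immediate early promoters and activates kinases that phosphorylate CREB. FOS and JUN family proteins pair to form the AP-1 transcription factor, EGR proteins are zinc finger factors that bind GC-rich sites, and the NR4A proteins are orphan nuclear receptors, whose genes also respond to cAMP and calcium. Of these factors, FOSL1 and EGR1 are well known as outputs of ERK signalling in tumor cells. In bulk RNA, fewer cells that express a gene and less RNA per cell cannot be told apart.

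RefSeq promoter windows (build GRCm38.p6) were listed for 7 of the 10 genes, and those of 4 genes are printed to show what lies upstream of the genes that changed together or apart at 24 h: Fos, Junb and Nr4a1, which were lower with MEKi, and Nr4a3, which was higher. Each is the 250 bases before a listed transcription start, 5′ to 3′ on the strand of the gene. Fos lies at chr12:85473640-85473889 (plus strand), Junb at chr8:84978749-84978998 (minus strand), Nr4a1 at chr15:101266596-101266845 (plus strand) and Nr4a3 at chr4:48045055-48045304 (plus strand). Capitals mark every match, on either strand, to 1 of 7 motifs. Among them are the short CRE motif TGACG, the full CRE TGACGTCA, the AP-1 site TGACTCA and the EGR sites GCGGGGGCG and GCGTGGGCG. The others are the ETS motif CCGGAA, the NR4A site AAAGGTCA and the CArG box bound by SRF. The full CRE contains the short one, and overlapping matches share capitals.
Fos: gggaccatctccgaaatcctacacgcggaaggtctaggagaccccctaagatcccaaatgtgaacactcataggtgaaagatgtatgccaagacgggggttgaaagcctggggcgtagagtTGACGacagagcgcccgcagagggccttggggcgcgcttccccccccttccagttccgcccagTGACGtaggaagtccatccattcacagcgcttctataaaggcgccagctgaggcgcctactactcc
Junb: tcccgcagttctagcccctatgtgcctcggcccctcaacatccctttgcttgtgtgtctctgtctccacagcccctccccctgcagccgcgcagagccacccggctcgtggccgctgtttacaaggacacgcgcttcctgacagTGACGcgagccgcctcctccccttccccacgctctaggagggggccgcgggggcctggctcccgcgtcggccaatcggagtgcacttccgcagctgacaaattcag
Nr4a1: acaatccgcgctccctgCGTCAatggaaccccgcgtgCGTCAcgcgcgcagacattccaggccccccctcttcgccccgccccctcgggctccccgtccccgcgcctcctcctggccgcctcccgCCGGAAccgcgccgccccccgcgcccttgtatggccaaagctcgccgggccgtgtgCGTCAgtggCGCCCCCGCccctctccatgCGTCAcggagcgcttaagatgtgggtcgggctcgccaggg
Nr4a3: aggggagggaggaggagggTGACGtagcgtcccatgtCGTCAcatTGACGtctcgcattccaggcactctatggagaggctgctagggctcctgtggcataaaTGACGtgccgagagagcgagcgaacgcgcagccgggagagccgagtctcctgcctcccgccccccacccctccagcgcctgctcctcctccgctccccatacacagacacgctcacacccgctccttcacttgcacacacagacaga
The short CRE motif, which CREB family factors bind, was present in the windows of 6 of the 7 genes (Fos, Junb, Nr4a1, Nr4a3, Egr2 and Fosb) and in 17.9% of all 32536 windows of this length. Fos held it 129 and 66 bases upstream, Junb 106 bases upstream, and Nr4a1 and Nr4a3 each held it 4 times. An EGR site was found in the windows of Nr4a1 and Fosb, against 3.09% of all windows. The ETS motif CCGGAA was found in the windows of Nr4a1 and Egr2, against 12.1%. Shorter or other ETS sequences were not searched, so the other windows may hold them. Of the listed windows of the 7 genes, a CArG box was found only in those of Egr2 (1.48% of all windows), and none held the AP-1 site (4.45%), the full CRE (1.56%) or the NR4A site (1.35%). Egr2 had 5 listed windows, and a gene was counted if any of its windows held the motif, whereas the percentages are of single windows. The counts of genes and the percentages are therefore not like measures. Egr1, Egr3 and Fosl1 had no listed window and were not searched, and sites more than 250 bases upstream were not searched for any gene. A motif missing here may therefore lie outside the windows. These are matches of letters in these windows and say nothing of binding. The short CRE motif was found both in the 3 printed genes that were lower at 24 h and in Nr4a3, which was higher.

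The cells carried the RNA of a melanocyte line: 7 of 7 melanocyte markers were above the median probe set, at 11.91 to 14.37. Of markers of other cell types, 2 of 4 leukocyte (2.81 to 6.57), 0 of 4 fibroblast (2.72 to 5.21), 1 of 3 endothelial (3.42 to 6.20) and 1 of 2 epithelial ones (3.54 to 6.56) were above the median. Those above it were Cd3e, Csf1r, Kdr and Epcam, none over 6.57, whereas Ptprc, the pan-leukocyte marker, was at 2.81 to 3.47. Array medians were 5.31 to 5.42. The check of drug action was met: Dusp6, Spry4 and Etv5, which ERK induces, were lower with MEKi by -1.41, -2.08 and -4.06 at 24 h and by -1.29, -0.58 and -1.29 at 72 h (log2 differences), all 6 with limma adjusted p under the threshold of 0.05. In DMSO all 3 of these genes were themselves lower at 72 h than at 24 h (median log2 difference -1.67). The MEKi effect differed between the times for 2 of the 3, and the part of the lower DMSO signal in this was not tested. MEKi 72 h replicate 3 stood apart for Egr1, at 9.87 against 5.91 and 6.47 in replicates 1 and 2, and for Fos, at 9.42 against 7.65 and 8.06. It was the highest of its 3 arrays for 11 of 16 probe sets, against 37.5% of all probe sets. There were 2 other arrays that were highest of their groups for 11 of 16, DMSO 72 h replicate 3 (35.4% of all) and DMSO 24 h replicate 1 (31.6%). This count therefore does not set MEKi 72 h replicate 3 apart. Because of the Egr1 and Fos values of that array, the 72 h results of these 2 genes are also given without it. The same holds for the differences of the MEKi effects for Egr1 and Nr4a3, and for the list counts. For the other genes the arrays are listed, and the fitted differences use all of them.

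**Figure D1:**
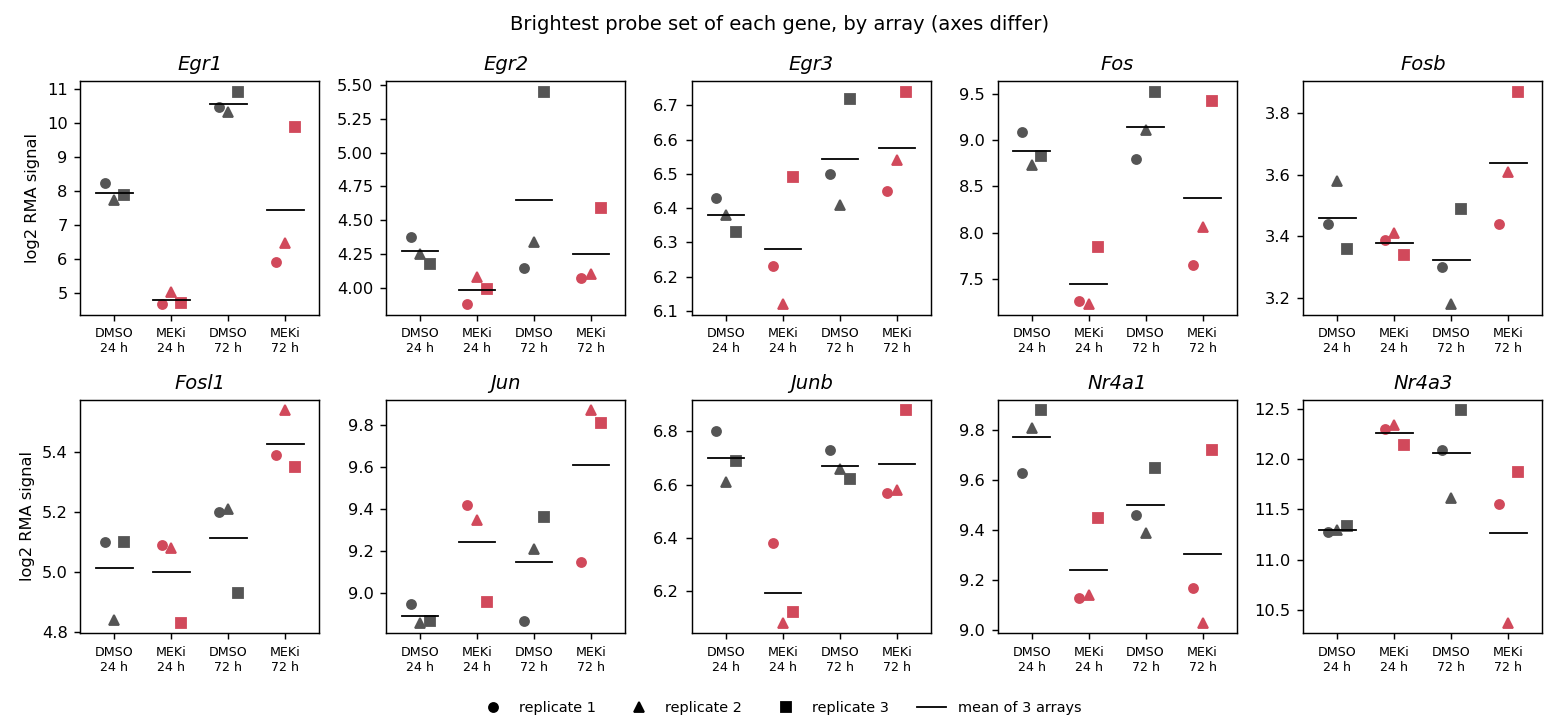
Log2 RMA signal (y axis, own range in each panel) of the brightest probe set of each of the 10 genes in each of the 12 arrays, by group on the x axis, with the symbol giving the replicate number and the line the mean of 3 arrays. Egr1 and Fos are low in all MEKi 24 h arrays, and MEKi 72 h replicate 3 lies near the DMSO arrays for both, at 9.87 and 9.42.

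At 24 h, MEKi lowered Egr1 and Fos most, lowered Junb and Nr4a1 less, and raised Nr4a3. Of the 16 probe sets 5 were called lower, against 4.61% of all 45037 probe sets tested, and 2 were called higher, against 3.83%. Counted by the brightest probe set of each gene, 4 of 10 genes were lower, against 5.86% of all 18193 genes, and 1 was higher, against 5.01%. The median log2 difference of the 16 was -0.09, and that of all probe sets 0.01. The groups did not overlap for 9 of 16, against 28.1% of all probe sets.

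Egr1, a zinc finger factor, was measured by 1 probe set, at 8.22, 7.73 and 7.88 in DMSO and 4.66, 5.01 and 4.69 in MEKi at 24 h (log2 signal, replicates 1 to 3). Every MEKi array lay far below every DMSO array. The log2 difference was -3.16 ± 0.14 (SE, n = 3 per group), or 8.92-fold lower (limma adjusted p = 0.000339), the second most negative of all 45037 probe sets. Leaving out any 1 array gave -3.27 to -3.02. The MEKi arrays, at 4.66 to 5.01, were below the array medians, so the fall may be larger than measured.

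Among the FOS family, Fos was at 9.09, 8.73 and 8.83 in DMSO and 7.26, 7.23 and 7.85 in MEKi at 24 h, with MEKi replicate 3 the highest of the treated arrays and no overlap. It fell by 1.44 ± 0.17 on the log2 scale (2.71-fold lower; adjusted p = 0.00401), the 16th most negative of all probe sets. Fosb, a close relative, was dim in every group (3.34 to 3.58 at 24 h), with a log2 difference of -0.08 ± 0.07 (95% interval -0.25 to 0.09; adjusted p = 0.58). Fosl1, which encodes FRA1, was at 5.10, 4.84 and 5.10 in DMSO and 5.09, 5.08 and 4.83 in MEKi in its brighter probe set (1417487_at). The Fosl1 groups overlapped fully, and the log2 difference of -0.01 ± 0.10 had a 95% interval of -0.25 to 0.22 (adjusted p = 0.959). Its dim second probe set (1417488_at) differed by 0.05 ± 0.06 (adjusted p = 0.687).

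In the JUN family, Junb and Jun took opposite signs at 24 h. Junb, which encodes a JUN protein with weaker activating function than JUN itself, was at 6.80, 6.61 and 6.69 in DMSO and 6.38, 6.08 and 6.12 in MEKi. All MEKi arrays were lower, and Junb fell by 0.51 ± 0.09 on the log2 scale (1.42-fold lower; adjusted p = 0.0164). Jun was at 8.95, 8.86 and 8.87 in DMSO and 9.42, 9.35 and 8.96 in MEKi in its brighter probe set (1417409_at). Every MEKi array was above every DMSO array, replicate 3 by the least. The log2 difference was 0.35 ± 0.12 (adjusted p = 0.107), and 0.42 ± 0.13 in the second probe set (1448694_at; adjusted p = 0.0873), so neither passed. Without MEKi 24 h replicate 3 both passed, at 0.49 (adjusted p = 0.00803) and 0.55 (adjusted p = 0.0276). With all arrays both also passed with a trended and robust prior (adjusted p = 0.0313 and 0.0256) and with array weights (0.0233 and 0.0292). On that array the ERK output genes Etv5 and Dusp6 were also nearer to DMSO, at 6.08 (against 4.35 and 4.22 in replicates 1 and 2) and 10.58 (against 9.95 and 9.88), and their part in the Jun values was not tested.

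Egr2 and Egr3, relatives of Egr1, were measured by 2 probe sets each, and those of Egr3 gave different results. Egr2 was dim, at 4.38, 4.25 and 4.18 in DMSO and 3.88, 4.08 and 3.99 in MEKi in its brighter probe set (1427683_at), without overlap. Its log2 difference of -0.29 ± 0.08 did not pass (adjusted p = 0.0645), nor did the -0.11 ± 0.08 of the other (1427682_a_at; adjusted p = 0.458). The brighter probe set of Egr3 (1421486_at) was at 6.43, 6.38 and 6.33 in DMSO and 6.23, 6.12 and 6.49 in MEKi, with overlap and a log2 difference of -0.10 ± 0.10 (adjusted p = 0.605). The dim one (1436329_at) was at 3.71, 3.68 and 3.90 in DMSO and 3.13, 2.87 and 3.34 in MEKi. There the groups did not overlap, and the signal fell by 0.65 ± 0.12 on the log2 scale (adjusted p = 0.0158), at percentile 14.3 of all probe sets by mean signal.

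The NR4A receptors moved apart. Nr4a1, also called NUR77, was at 9.63, 9.81 and 9.88 in DMSO and 9.13, 9.14 and 9.45 in MEKi at 24 h, with all MEKi arrays lower. It fell by 0.53 ± 0.11 on the log2 scale (1.45-fold lower; adjusted p = 0.0201). Nr4a3, also called NOR1, was among the brightest features of the array in its lead probe set (1438796_at, percentile 97.3 of all probe sets), at 11.27, 11.29 and 11.33 in DMSO and 12.30, 12.34 and 12.14 in MEKi. Replicates lay within 0.2 of each other in both groups, and Nr4a3 was 1.95-fold higher with MEKi (log2 difference 0.96 ± 0.07; adjusted p = 0.00123). A dimmer probe set (1421079_at) was at 4.25, 4.24 and 4.18 in DMSO and 4.88, 5.13 and 4.72 in MEKi, also without overlap (0.69 ± 0.10; adjusted p = 0.00752). The remaining probe set of Nr4a3 (1421080_at) differed by 0.05 ± 0.08 (adjusted p = 0.788), with overlapping arrays at 6.86 to 7.08. The probe sets of Nr4a3 thus disagreed. Nr4a2, the other member of the receptor family, was lower with MEKi (-0.47 ± 0.08; adjusted p = 0.0099).

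Calls of the smaller falls at 24 h were lost without some single arrays. The Junb call was lost without DMSO replicate 1 or 3 or MEKi replicate 2 (adjusted p up to 0.0686). That of Nr4a1 was lost without DMSO replicate 2 or 3 or MEKi replicate 1 or 2 (up to 0.084). That of Egr3 was lost without DMSO replicate 3 (0.0576) or MEKi replicate 1 (0.0635). Leaving out these arrays also lowered the calls over all probe sets, from 3801 to between 1133 and 1747. Without any 1 array the log2 differences were -0.60 to -0.45 for Junb and -0.64 to -0.48 for Nr4a1. For the Egr3 probe set they were -0.76 to -0.53. With all 12 arrays in 1 fit the lead Nr4a3 call ended (adjusted p = 0.0624).

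**Figure D2:**
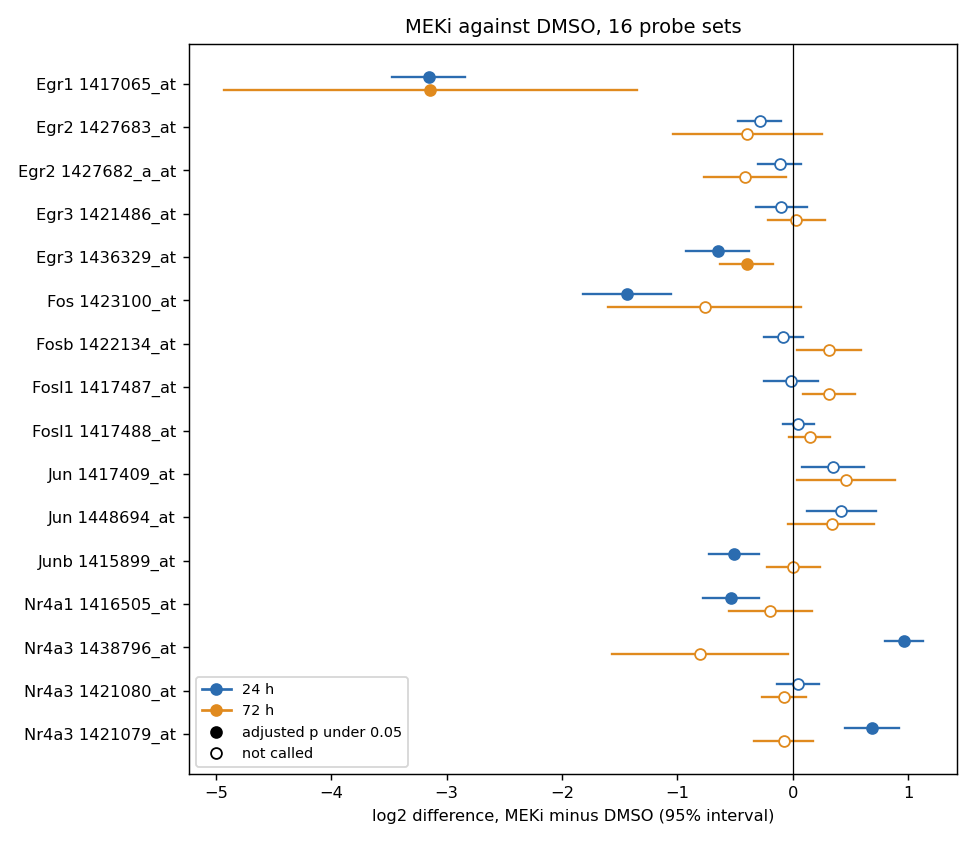
Log2 difference, MEKi minus DMSO (x axis), with its 95% interval, for each of the 16 probe sets at 24 h and at 72 h, filled where the adjusted p was under 0.05. The 24 h intervals are narrow and 7 probe sets are filled, whereas at 72 h only Egr1 and one probe set of Egr3 are.

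At 72 h, Egr1 was again the gene with the largest fall, but its treated arrays disagreed. How many other immediate early genes passed depended on whether arrays were paired by replicate number. With the number as a block, 5 of the 16 probe sets were lower and 1 higher, with 3772 of all 45037 called in either direction. In the fit without the block, used below unless stated, 2 of the 16 were called lower (4.25% of all probe sets) and 0 higher (2.99% of all). At an unadjusted limma p under 0.05, 4 were lower (10.5% of all) and 3 higher (9.67% of all). The median log2 difference of the 16 was -0.08 and that of all probe sets 0.01, and the groups did not overlap for 5 of 16, against 24.6% of all.

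Egr1 was at 10.47, 10.30 and 10.91 in DMSO and 5.91, 6.47 and 9.87 in MEKi at 72 h. Replicates 1 and 2 with MEKi were far below DMSO, whereas replicate 3 lay just below the DMSO range. The log2 difference was -3.14 ± 0.80 (8.84-fold lower; adjusted p = 0.0445), the most negative of all probe sets at 72 h. Without MEKi replicate 3 it was -4.37 (adjusted p = 9.76e-05), and without replicate 3 of both treatments -4.20 (adjusted p = 0.000949). Without any other single array it no longer passed, at -3.27 to -2.39 with adjusted p of 0.0808 to 0.167, nor did it with a trended and robust prior (adjusted p = 0.26).

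Fos was at 8.79, 9.11 and 9.52 in DMSO and 7.65, 8.06 and 9.42 in MEKi. MEKi replicate 3 lay inside the DMSO range, so the groups overlapped, and the log2 difference of -0.76 ± 0.38 did not pass (adjusted p = 0.297). Without that array it was -1.29 (adjusted p = 0.00968), and without replicate 3 of both treatments -1.10 (adjusted p = 0.0195). At 72 h, arrays that shared a replicate number deviated together, and within numbers the Fos differences were -1.14, -1.05 and -0.10. With the replicate number as a block, Fos passed (adjusted p = 0.043).

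The same block raised the 72 h count from 2 to 5 probe sets lower and from 0 to 1 higher. Besides Egr1 (adjusted p = 0.0127), the Egr3 probe set 1436329_at (0.0299) and Fos, the lower ones were the lead probe set of Nr4a3 (0.012) and the dim one of Egr2 (1427682_a_at; 0.03). The higher one was the brighter probe set of Jun (0.0249). The block adds no array, and only uses the shared deviations of arrays with 1 number.

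**Figure D3:**
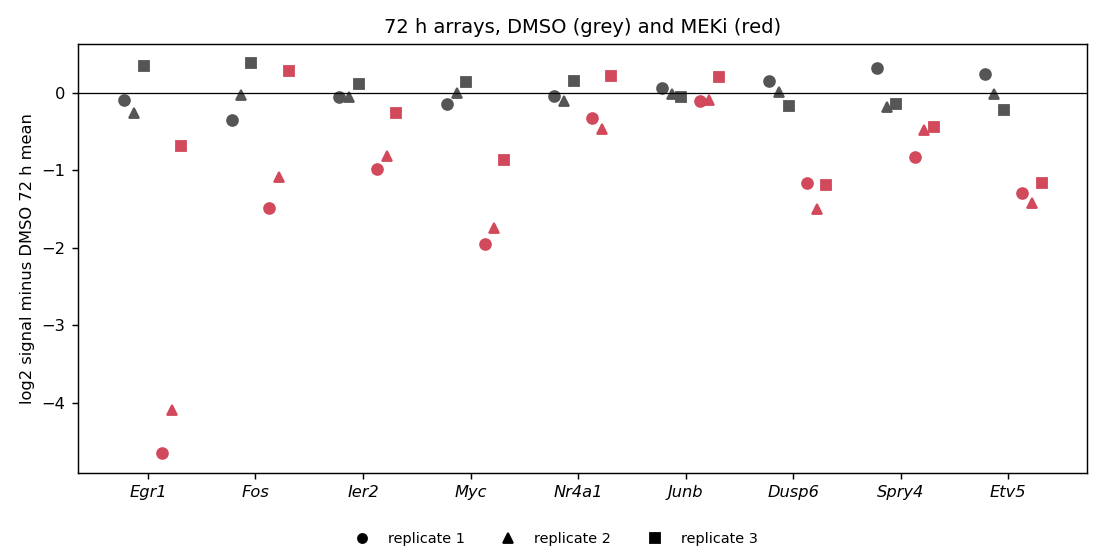
Log2 signal of each 72 h array minus the mean of the DMSO 72 h arrays (y axis) for 9 genes, DMSO in grey and MEKi in red, with the symbol giving the replicate number. MEKi replicate 3 lies near DMSO for Egr1, Fos and Ier2, and with replicates 1 and 2 for Dusp6, Spry4 and Etv5.

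MEKi 72 h replicate 3 was near DMSO for some ERK-linked genes and not for others. Ier2, an immediate early gene outside the 10, was at 8.56, 8.73 and 9.29 with MEKi against 9.49, 9.49 and 9.66 in DMSO, and Myc at 7.77, 7.98 and 8.85 against 9.58, 9.72 and 9.86. Both were highest in replicate 3 of either treatment. Dusp6 did not share this, at 9.85, 9.51 and 9.82 with MEKi against 11.17, 11.03 and 10.84 in DMSO. Etv5 was at 4.06, 3.93 and 4.18 against 5.59, 5.33 and 5.12, and Spry4 at 3.52, 3.87 and 3.91 against 4.67, 4.17 and 4.21. With MEKi both were below the array medians. Spry4 was not far from DMSO, which leaves little room to show a shift of replicate 3. Etv5 lay further from DMSO, and its replicate 3, at 4.18, stayed near replicates 1 and 2. What set this array apart was not tested. Over all probe sets its median correlation with its 2 group mates was 0.997, in the range of the other arrays (0.996 to 0.998).

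Junb was at 6.73, 6.66 and 6.62 in DMSO and 6.57, 6.58 and 6.88 in MEKi at 72 h. The groups overlapped, and the log2 difference of 0.01 ± 0.10 had a 95% interval of -0.22 to 0.23 (adjusted p = 0.982). Nr4a1, at 9.46, 9.39 and 9.65 in DMSO and 9.17, 9.03 and 9.72 in MEKi, also overlapped through MEKi replicate 3 (-0.19 ± 0.16; adjusted p = 0.578). Jun was at 8.87, 9.21 and 9.36 in DMSO and 9.15, 9.87 and 9.81 in MEKi. Jun was higher with MEKi within each replicate number, by 0.28, 0.66 and 0.45, and without the block the log2 difference of 0.46 ± 0.19 did not pass (adjusted p = 0.202).

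Fosl1 was at 5.20, 5.21 and 4.93 in DMSO and 5.39, 5.54 and 5.35 in MEKi at 72 h. All MEKi arrays were the higher ones, but the log2 difference of 0.31 ± 0.10 did not pass (adjusted p = 0.106). Neither did that of its dim probe set (0.15 ± 0.08; adjusted p = 0.348), which was also without overlap. Fosb remained dim, at 3.30, 3.18 and 3.49 in DMSO and 3.44, 3.61 and 3.87 in MEKi (0.32 ± 0.12; adjusted p = 0.181). Egr2 was at 4.15, 4.34 and 5.45 in DMSO and 4.07, 4.10 and 4.59 in MEKi, highest in replicate 3 of either treatment (-0.39 ± 0.29; adjusted p = 0.516). Of Egr3, the dim probe set was at 3.74, 3.54 and 3.53 in DMSO and 3.31, 3.03 and 3.27 in MEKi, all of them lower (-0.40 ± 0.10; adjusted p = 0.0463), and the brighter one differed by 0.03 ± 0.11 (adjusted p = 0.911). The Egr3 call was lost without any single 1 of the 6 arrays (adjusted p of 0.0679 to 0.178).

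The effect of MEKi on Nr4a3 differed between the times, and Nr4a3 was the only gene of the 10 for which that difference passed. At 72 h its lead probe set was at 12.09, 11.61 and 12.49 in DMSO and 11.55, 10.37 and 11.87 in MEKi. The arrays spread widely in both groups and overlapped, with a log2 difference of -0.80 ± 0.34 (adjusted p = 0.224), and within numbers Nr4a3 was lower with MEKi by -0.54, -1.24 and -0.62. The difference of the MEKi effects, 72 h minus 24 h, was -1.76 ± 0.41 (adjusted p = 0.0349), the 13th most negative of all probe sets. In the dim probe set 1421079_at, at 4.33, 4.20 and 4.26 in DMSO and 4.35, 3.93 and 4.28 in MEKi at 72 h, it was -0.76 ± 0.16 (adjusted p = 0.0219). In 1421080_at it was -0.12 ± 0.12 (adjusted p = 0.697).

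**Figure D4:**
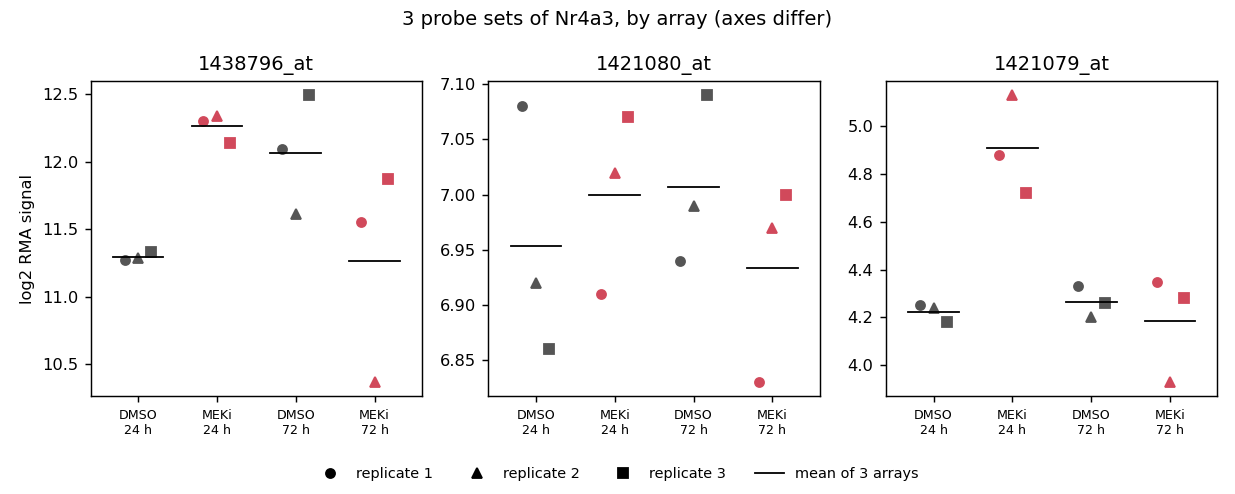
Log2 RMA signal (y axis, own range in each panel) of the 3 probe sets of Nr4a3 in each of the 12 arrays, by group on the x axis, with the symbol giving the replicate number and the line the mean of 3 arrays. The probe sets 1438796_at and 1421079_at are higher with MEKi than with DMSO at 24 h without overlap, and 1421080_at stays between 6.83 and 7.09 on all arrays.

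Of the 16 probe sets, these 2 were called lower in the difference of the MEKi effects (1.66% of all probe sets) and 0 higher (1.36% of all), with 3 higher (7.73% of all) and 2 lower (8.1% of all) at an unadjusted limma p under 0.05. The lead Nr4a3 call was kept without MEKi 72 h replicate 3 (-2.07; adjusted p = 0.0118) and with the replicate block (adjusted p = 0.00214), and was lost without any 1 array of 24 h or without DMSO 72 h replicate 1 or 3 (adjusted p up to 0.0838) and with a trended and robust prior (0.109). That of 1421079_at was lost without DMSO 24 h replicate 3, DMSO 72 h replicate 1 or MEKi 24 h replicate 1 or 2 (adjusted p up to 0.0595). Junb, with a difference of 0.51 ± 0.14, did not pass (adjusted p = 0.0744), and neither did Fos at 0.67 ± 0.48 (adjusted p = 0.568). For Egr1 the difference was 0.01 ± 0.97 (95% interval -2.08 to 2.11; adjusted p = 0.997) over all arrays, and -1.21 without MEKi 72 h replicate 3 (adjusted p = 0.0306). The MEKi 24 h signal of Egr1 was below the array medians, where a low signal limits the size of a fall that can be measured, so the sizes of the falls at the 2 times cannot be ranked.

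Egr1 also differed between the culture times. In DMSO, Egr1 was 6.13-fold higher at 72 h than at 24 h (log2 difference 2.62 ± 0.17; adjusted p = 6.23e-05), with all 3 arrays of 72 h above all 3 of 24 h. With MEKi it was 6.19-fold higher at 72 h (2.63 ± 0.81; adjusted p = 0.039), and by 1.40 without replicate 3 of 72 h (adjusted p = 0.000762). Egr1 in MEKi at 72 h, at 5.91 and 6.47 in replicates 1 and 2, was below DMSO at 24 h, and at 9.87 in replicate 3 above it. These comparisons share their arrays with the MEKi comparisons and are not independent of them.

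The lead probe set of Nr4a3 rose over time in DMSO (0.77 ± 0.18; adjusted p = 0.0151) and fell over time with MEKi (-0.997 ± 0.31; adjusted p = 0.0389). Its probe set 1421079_at fell over time with MEKi (-0.72 ± 0.13; adjusted p = 0.00343) and differed by 0.04 ± 0.07 in DMSO. Junb rose by 0.48 ± 0.11 with MEKi (adjusted p = 0.0116), from 6.38, 6.08 and 6.12 to 6.57, 6.58 and 6.88, and differed by -0.03 ± 0.08 in DMSO. Fosl1 rose by 0.43 ± 0.10 with MEKi (adjusted p = 0.00943), and by 0.10 ± 0.11 in DMSO it did not pass. In DMSO over time 2 of the 16 probe sets were called higher (11.3% of all) and 0 lower (14.3%), with 1 lower at an unadjusted limma p under 0.05 (18.6% of all), which was Nr4a1 (-0.27 ± 0.10; adjusted p = 0.0716). With MEKi 3 were higher (11.3%) and 2 lower (13.9%). The Egr1 and lead Nr4a3 calls over time with MEKi ended without any 1 of the MEKi 24 h arrays (adjusted p of 0.0739 to 0.104), and that of Nr4a3 also without MEKi 72 h replicate 1 (0.0535). Both ended with a trended and robust prior (0.205 and 0.185). Without MEKi 72 h replicate 2 the Nr4a3 value was -0.55 (adjusted p = 0.0124).

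Other immediate and early response genes moved in both directions with MEKi. Of 33 such genes, all measured, 8 were lower and 5 higher at 24 h. By the brightest probe set of each of all 18193 genes, 5.86% were lower and 5.01% higher at 24 h, 5.14% and 4.03% at 72 h, and 2.1% and 1.97% in the difference of the MEKi effects, and the counts of this and the following lists are to be read against these shares. The largest changes were in Maff, a small MAF factor (-1.61 ± 0.14; adjusted p = 0.00151), Ier2 (-0.997 ± 0.09; adjusted p = 0.00153), the kinase gene Sgk1 (-0.99 ± 0.09; adjusted p = 0.0017), Myc (-0.84 ± 0.14; adjusted p = 0.0119), and Klf2 and Klf6, Krüppel-like factors (0.79 and 0.69; adjusted p = 0.00153 and 0.00923). At 72 h 8 were lower and 6 higher, and 6 and 5 without MEKi replicate 3, led by Myc (-1.52 ± 0.23; adjusted p = 0.0047), Klf2 (1.09 ± 0.15; adjusted p = 0.0033), Rhob (0.93 ± 0.13; adjusted p = 0.00325), Ccn2 (-0.90 ± 0.13; adjusted p = 0.00449), Nr4a2 (-0.85 ± 0.16; adjusted p = 0.0103) and Klf6 (0.78 ± 0.09; adjusted p = 0.00166). The median log2 difference of the list was -0.04 at 24 h and 0.10 at 72 h, and that of all genes 0.01 at both times. In the difference of the MEKi effects 2 were higher, Fosl2 and Plk3, and when MEKi 72 h replicate 3 was left out 1 was lower and 3 were higher.

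Of 16 partners and corepressors of these factors, 4 of which are also in the list above, 2 were lower at 24 h, Maff and Nab2. NAB2 binds EGR proteins and represses their targets, and its gene fell by 0.37 ± 0.09 on the log2 scale (adjusted p = 0.0359). At 72 h Maff was lower (-0.71 ± 0.19; adjusted p = 0.0499), and Fosl2, a FOS relative, and Cops5, a JUN coactivator gene, were higher (0.58 ± 0.09 and 0.52 ± 0.10; adjusted p = 0.00619 and 0.0126). Their MEKi effects differed between the times for Fosl2, Mafk and Cops5, by 0.71, 0.60 and 0.52. The list median was -0.05 at 24 h and 0.23 at 72 h.

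Upstream, 4 of the 13 measured of 17 transcription factors and ERK-activated kinases were lower at 24 h, and the list median was -0.09. They were Elk3, a ternary complex factor (-0.91 ± 0.07; adjusted p = 0.00126), Srf (-0.35 ± 0.08; adjusted p = 0.0399), Mef2c (-0.33 ± 0.07; adjusted p = 0.0301) and Creb1 (-0.29 ± 0.06; adjusted p = 0.0197). At 72 h 4 were lower, namely Elk3 (-0.79 ± 0.13), Creb1 (-0.56 ± 0.12), Mef2c (-0.43 ± 0.11) and Rps6ka5, the kinase MSK1 (-0.91 ± 0.18), and Crem, a CREB relative, was higher (0.51 ± 0.10; adjusted p = 0.0117). The list median at 72 h was -0.08.

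Known AP-1 and EGR targets changed direction in part between the times. Of 20 measured of 24, 5 were lower at 24 h: Id1 (-1.02 ± 0.09), Ccnd1, which encodes cyclin D1 (-0.85 ± 0.13), Plaur, the urokinase receptor gene (-0.48 ± 0.07), Pdgfa (-0.31 ± 0.06) and F3, the tissue factor gene (-0.29 ± 0.07). Hmox1, encoding heme oxygenase, was higher (0.44 ± 0.11; adjusted p = 0.0463). At 72 h 2 were lower, Vegfa (-0.65 ± 0.16; adjusted p = 0.0405) and Id1 (-0.59 ± 0.09; adjusted p = 0.00588), and 4 were higher, Hmox1 (1.24 ± 0.21), Tgfb1 (0.94 ± 0.11), Plaur (0.73 ± 0.15) and F3 (0.40 ± 0.10). The difference of the MEKi effects passed for Plaur (1.21 ± 0.18; adjusted p = 0.00446), Tgfb1 (0.87 ± 0.14; adjusted p = 0.00643) and F3 (0.69 ± 0.12; adjusted p = 0.00873). Both Plaur and F3 were thus lower with MEKi at 24 h and higher at 72 h. The list median was -0.12 at 24 h and 0.04 at 72 h. The 72 h counts of these last 3 lists were as many without MEKi replicate 3.

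**Figure D5:**
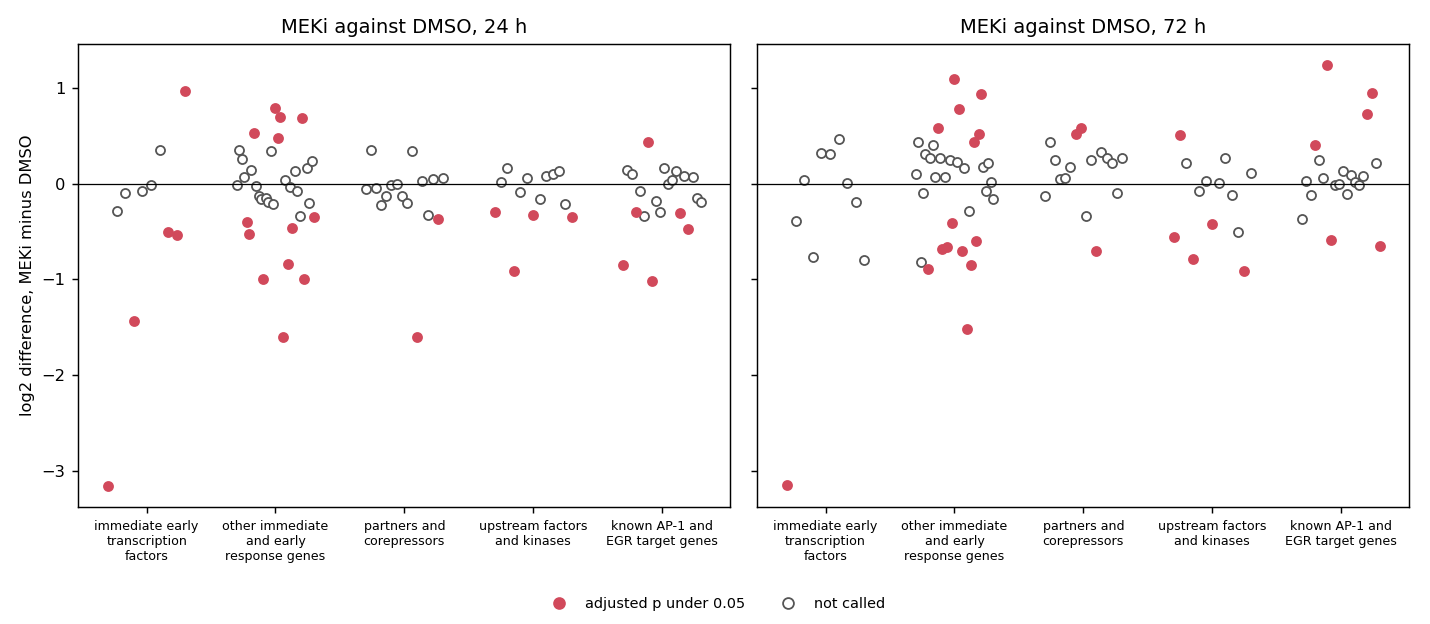
Log2 difference, MEKi minus DMSO (y axis), of the brightest probe set of each gene of 5 lists (x axis) at 24 h and 72 h, in red where the adjusted p was under 0.05. Arrays were not paired by replicate number in these fits. Egr1 is the lowest point at both times and the lone called immediate early factor at 72 h. The called partners and upstream genes at 24 h all lie below 0.

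Genes with a pattern like Egr1 and Fos were found by the Pearson correlation of log2 signal over the 12 arrays among 11334 other genes above the median. Ier2 was first for both, at r = 0.97 for Egr1 and 0.94 for Fos, followed for Egr1 by Zfp217 (0.94), Rhot1 (0.94) and Thap6 (0.93) and for Fos by Yars (0.93), Egr1 (0.92) and Dnajc8 (0.91). Fosl1 ran closest to Atp8b2 (0.96) and Jun to Kidins220 (0.92). The points share the 4 groups, the cell line and the normalization, so these are descriptions. Within the 10 genes, Fos ran with Junb (0.79) and Nr4a1 (0.76) over the 12 arrays, and Egr1 with Junb (0.77). The 2 probe sets of Jun correlated at 0.89, of Egr2 at 0.86, of Fosl1 at 0.79 and of Egr3 at 0.20, and 1438796_at of Nr4a3 correlated with 1421079_at at 0.71 and with 1421080_at at 0.28.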

How the data were processed

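RNA of 12 B16-OVA samples was measured on 1 array each. Per the labels, the submitters used 200 ng of RNA in a 3′ IVT Plus labelling reaction and applied RMA, which corrects background, makes the distributions of the arrays alike and summarizes the probes of a probe set. The values deposited by the authors are log2 RMA signals with 2 decimals, from 2.21 to 14.47, so any shift common to all probe sets was removed. The software version is not given in the sources used here.

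Groups came from the sample titles. Of 45101 probe sets, 64 controls were left out, and 34945 of the 45037 others were paired with 1 gene, 932 with several and 9160 with none. Each comparison was fitted with limma (version 3.58.1, R 4.3.3) on its own 6 arrays, two-sided, with Benjamini-Hochberg adjustment over all 45037 probe sets and a threshold of 0.05. The difference of the MEKi effects used all 12 arrays. Errors are moderated SEs. The brightest probe set of a gene by its mean over the 12 arrays stands for it in counts by gene and in lists. All probe sets of the 10 genes are named, and from each list up to 6 called genes with the largest change per MEKi comparison, plus Dusp6, Spry4 and Etv5. Those named for the difference of the effects, Mafk among them, Nr4a2 at 24 h, Ier2 and Myc by array, and correlations within the 10 genes were chosen after their values were seen. The 10 genes and the lists were chosen with earlier results of these data known. The workflow was tested on simulated data.

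Replicate numbers were checked as pairs by correlating deviations from the group means over all probe sets. At 72 h DMSO and MEKi arrays of the same number correlated at 0.189, 0.163 and 0.13, and at 24 h at 0.073, 0.125 and 0.151. Over probe sets brighter than the median they correlated at 0.207 to 0.307 at both times. The numbers were therefore taken as pairs at 72 h in the fit with the block, whereas the fit given first left the pairing out. Between the times, arrays of the same number and treatment correlated at -0.017 to 0.107. Motifs were searched on both strands. With 3 arrays per group, their number limits the precision.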

Additional observations from a re-analysis of the deposited data

Results flagged for a closer look

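The effect of MEKi on Nr4a3 differed between 72 h and 24 h by -1.763 in probe set 1438796_at and by -0.763 in 1421079_at (log2 differences, 72 h minus 24 h; limma adjusted p = 0.0349 and 0.0219). Fosb (1422134_at) was singled out because its MEKi arrays all lay below the DMSO mean at 24 h and all above it at 72 h. The difference of its effects was 0.397 and did not pass (adjusted p = 0.208).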

How the results depend on the processing

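Counts below are of the 16 probe sets, with the value as reported first. Calls over all 45037 probe sets moved as well, and moves of the 16 are to be read against them. At 24 h 3801 were called as reported, 5890 with array weights and 6623 with a trended and robust prior. Among 22514 brighter probe sets 6403 were, and without any 1 array 1133 to 5091. At 72 h 3260 were called as reported, 4690 with array weights, 4102 with that prior and 1383 to 2716 without any 1 array. In the difference 1358 were, and 668 to 1798 without 1 array. With the replicate number as a block, 72 h lower went from 2 to 5 and higher from 0 to 1, and higher over time with MEKi from 3 to 5 (arrays of different times share only a number). The block changed no other count. With all 12 arrays in 1 fit, higher at 24 h went from 2 to 1 and higher over time in DMSO from 2 to 1. With a trended and robust prior, higher at 24 h became 4, lower at 72 h 1 (Egr1 lost, adjusted p = 0.26), lower over time in DMSO 1, lower and higher with MEKi 1 and 2 (Nr4a3 and Egr1 lost), and lower in the difference of the effects 1. Array weights gave 6 lower (Egr2 gained, adjusted p = 0.0401) and 4 higher at 24 h, 1 lower over time in DMSO and 4 higher with MEKi (Egr3 gained, 0.0437). Among brighter probe sets, 4 were lower at 24 h, 2 higher over time with MEKi, 1 lower at 72 h, 1 over time in DMSO, 1 over time with MEKi and 1 in the difference, with 1 higher in the difference, where 7 of the 16 were not tested. Centring arrays gave 1 lower over time in DMSO. A change of at least 2-fold left 2 lower and 0 higher at 24 h, 1 lower at 72 h, 1 higher over time in DMSO, 0 lower and 1 higher with MEKi, and 1 lower in the difference. With the mean of the probe sets of a gene, 5 genes were lower at 24 h against 4, and 1 gene was lower over time in DMSO and 1 higher in the difference, against 0 each by the brightest probe set. Quantile normalization again moved no count. Leaving out 1 array at a time gave 2 to 5 lower and 2 to 4 higher at 24 h, 0 to 2 and 0 to 2 at 72 h, 0 to 1 and 2 to 3 over time in DMSO, 1 to 2 and 2 to 6 with MEKi, and 0 to 3 and 0 to 1 in the difference. The difference for Egr1 reversed from 0.013 to -1.213 without MEKi 72 h replicate 3, and leaving out 1 array at a time gave -1.213 to 0.767. Leaving out replicate 3 of both 72 h groups, chosen after seeing the data, as were the list counts without MEKi 72 h replicate 3, left 2 lower and 0 higher at 72 h. The cause of each move was not tested, apart from the brighter probe sets. Fosb, both probe sets of Egr2 and Fosl1, and 1 each of Egr3 and Nr4a3 lay below the median of all probe sets, where a low signal limits what a difference can show.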
